A study of Mus musculus with 12 samples.

Results

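The respiratory chain genes described here are nuclear genes for subunits of the 4 respiratory complexes and of the ATP synthase of the mitochondrial inner membrane. They were chosen by symbol (Nduf subunits, Sdha to Sdhd, Uqcr genes and Cyc1, nuclear Cox subunits and Atp5 genes, without the Ndufaf assembly factors), and a gene was kept if at least 3 of the 12 libraries held 10 or more reads of it. The names matched 86 genes, and 80 of them passed, of 15986 genes in all. They comprise 38 genes of complex I, 4 of complex II, 9 of complex III, 12 of complex IV and 17 of the ATP synthase. The rule used no expression difference, though it was set with earlier results of these data known.

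Complex I (NADH dehydrogenase) and complex II (succinate dehydrogenase) pass electrons to ubiquinone, complex III hands them to cytochrome c, and complex IV (cytochrome c oxidase) gives them to oxygen. Complexes I, III and IV pump protons, and the ATP synthase uses the resulting gradient to make ATP. Mature neutrophils are known for few mitochondria and for drawing most of their ATP from glycolysis.

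Mature neutrophils were isolated from mouse bone marrow by magnetic selection for the surface protein Ly6G and kept for 6 h at 37C in phenol red-free medium. The 4 groups, of 3 libraries each, were Rab27aKO (KO) cells with 5 µM CpG-B, KO cells without it, wild-type (WT) cells with 5 µM CpG-B and WT cells without it. CpG-B is an oligonucleotide ligand of the endosomal DNA sensor TLR9, and Rab27a is a small GTPase that acts in the docking of secretory organelles at the plasma membrane. The titles give C57BL/6 as the background; the sources used here do not give the knockout allele or the sex, age and number of animals, and the labels call the cells without CpG both vehicle and untreated. The labels do not say that the libraries of a group came from separate animals, and every p-value here rests on the spread between libraries, which may be technical.

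Libraries held 10928813 to 15513279 counts, of which the members took 0.211 to 0.343%. Levels are given as CPM (the count of a gene relative to the library's total, scaled by TMM) or, where genes of different length are set side by side, as the authors' TPM (a level per length). A gene is said to have risen or fallen only where its adjusted p was at most 0.05 in edgeR's quasi-likelihood test across 10802 genes. Rab27a had 129, 116 and 94.9 CPM in KO unstimulated libraries, against 231, 251 and 335 CPM in WT unstimulated libraries, a log2 fold change of -1.26 (SE 0.17, edgeR adjusted p = 0.00037). With CpG it had 114, 113 and 96.1 CPM in KO libraries, against 207, 216 and 285 CPM in WT libraries. It was lower in all 6 KO libraries than in any WT library, but not absent. Of the 12 mature neutrophil markers all were detected, and they summed to 51590 to 85960 CPM in KO CpG, 63470 to 75840 in KO unstimulated, 70390 to 85340 in WT CpG and 75210 to 81080 in WT unstimulated libraries. S100a8 and S100a9 made up most of these sums. The lowest sum was that of KO CpG library 2, where S100a8 had 5377 and S100a9 21480 CPM, against 15610 and 43010 CPM in KO CpG library 1 and 13060 and 34080 CPM in KO CpG library 3. Not all markers were low there: Cxcr2 had 1864 CPM, against 1409 and 1129 CPM. Ly6g itself had 112 to 197 CPM in all 12 libraries.

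KO CpG library 2 and WT unstimulated library 3 stood apart in a way that touched the members. The effective lengths implied by the deposited values correspond to fragments 118 bases longer in KO CpG library 2, and 45.2 bases longer in WT unstimulated library 3, than in WT unstimulated library 1. The other libraries lay within 6.21 bases of it. Respiratory chain transcripts are short: 74 of the 80 members fell into the shortest quartile of the tested genes (effective length up to 1607 bases). KO CpG library 2 lay below the mean of the other KO CpG libraries in 73 of 80 members, with a median difference of -0.56 on the log2(CPM + 0.5) scale. After scaling by effective length, 53 of 80 lay below, with a median difference of -0.15. WT unstimulated library 3 lay below the other libraries of its group in 73 of 80 members (median difference -0.25). Medians and counts of signs over the members, and counts of groups that do not overlap by CPM, are therefore given with and without the library concerned. Medians by transcript length and counts by TPM use all libraries.

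**Figure D1:**
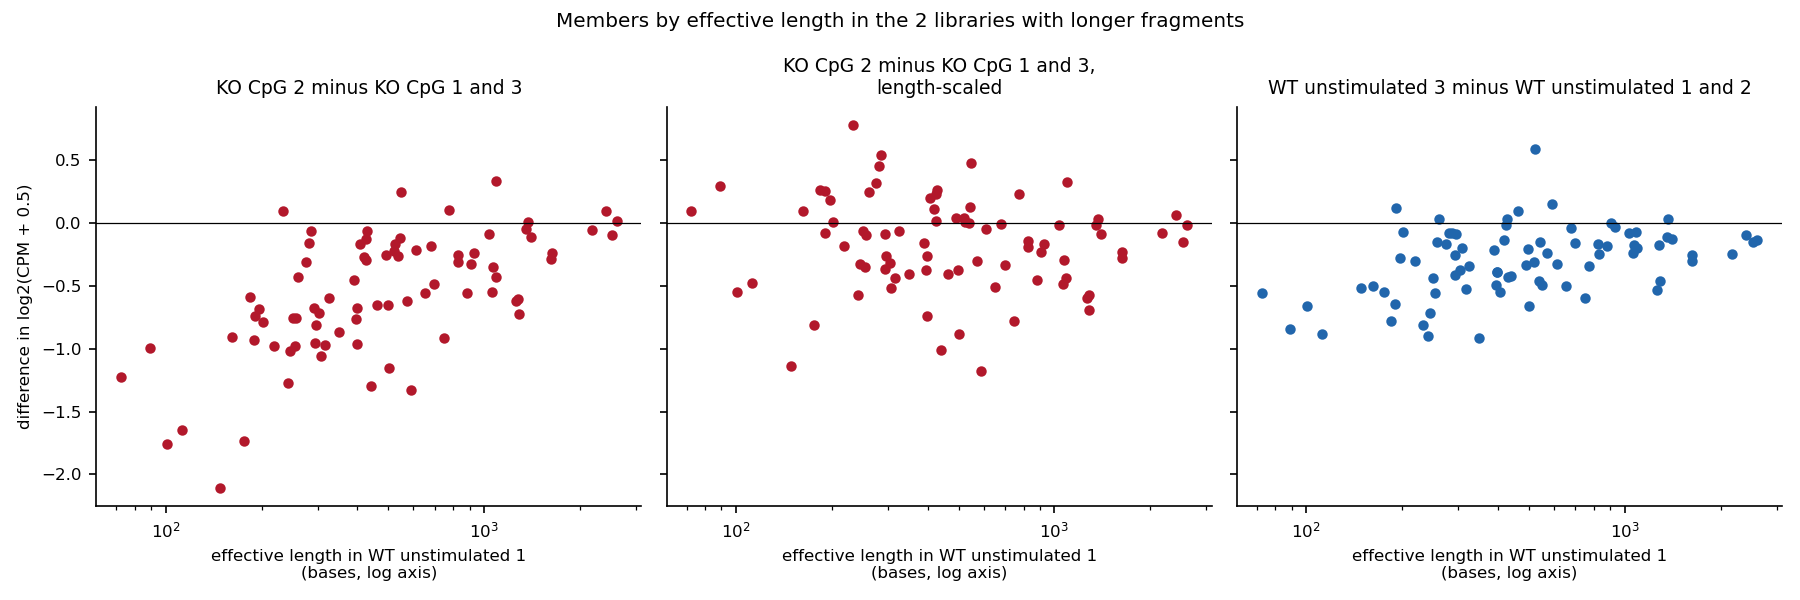
Each point is 1 of the 80 members, at its effective length in bases (log axis), with the difference in log2(CPM + 0.5) between 1 library and the mean of the other 2 of its group on the vertical axis. The left and middle panels show KO CpG library 2 before and after scaling by effective length (73 and 53 of 80 below 0), and the right panel shows WT unstimulated library 3 (73 of 80 below 0).

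Within each complex the members' levels per length differed widely. In complex I the highest mean over the 12 libraries was that of the accessory subunit Ndufa3, at 315 ± 76.4 TPM (SD, n = 12), and the lowest that of Ndufa11, at 3.07 ± 0.456 TPM. In complex II the membrane anchor Sdhd had 108 ± 14.6 TPM and the other anchor, Sdhc, 25.3 ± 2.43 TPM. In complex III the hinge protein gene Uqcrh had 253 ± 37.2 TPM and Uqcrq 22.1 ± 3.90 TPM. In complex IV, Cox4i1 had 374 ± 25.1 TPM and Cox7b 29.9 ± 6.38 TPM. In the ATP synthase, Atp5l had 386 ± 31.6 TPM and Atp5g1 16.2 ± 3.56 TPM. The median gene of complex IV (169 TPM) and of the ATP synthase (133.8 TPM) stood above that of complex I (42.7 TPM), II (64.4 TPM) and III (50.2 TPM). The TPM of the shortest genes depends most on the effective length, so their order is the least certain. The low TPM of Ndufa11 and Uqcrq also goes with long effective lengths (2407 and 1263 bases). By summed reads Ndufa5 (286) stood below Ndufa11 (835), and Uqcr11 (975) below Uqcrq (3124).

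Where a subunit has a tissue-specific copy, the widely expressed form held nearly all reads. Cox4i1 had 1312 to 2057 reads per library and Cox4i2, the form known from lung, 0 to 1. Cox6a1 had 363 to 566 reads and its heart and muscle form Cox6a2 0 to 6. Cox6b1 had 354 to 671 reads and the testis form Cox6b2 0 to 8. Cox7a2 had 220 to 549 reads, its relative Cox7a2l 839 to 1531, and the heart and muscle form Cox7a1 0 to 11. Cox8a had 544 to 849 reads. Ndufa4, counted here with complex IV, where its protein is found, had 115 to 317 reads and its relative Ndufa4l2 0 to 1.

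The c ring of the ATP synthase is encoded by 3 genes that give the same mature protein. Atp5g3 held 60.3 to 63.2% of their summed TPM as group means, Atp5g2 29.5 to 31.0% and Atp5g1 7.28 to 8.75%. The group means lay closer together than the spread between libraries, whose SDs ran up to 5.15 percentage points. Reads of such similar genes, and of Ndufb4, Ndufb4b and Ndufb4c, could have been split between copies in the authors' counting, so their separate values are uncertain. The genes just inside the count rule were Ndufa5, with 11 to 40 reads per library, and Ndufb2, with 14 to 46. Just outside were Cox7a1, which reached 10 reads in 1 library, and Cox6b2, which had at most 8. Ndufb4b, Cox4i2, Cox6a2 and Ndufa4l2 also fell short. All 80 members had at least 10 reads in all 12 libraries, so none entered through 1 group.

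After 6 h of CpG no member rose or fell in either genotype. In KO cells 0 of 80 members passed, where 11.6% of all tested genes did (7.57% higher and 4.06% lower). In WT cells 0 of 80 passed, where 6.04% did (4.74% higher and 1.3% lower). At an unadjusted p under 0.05 the edgeR counts were 1 member in KO and 0 in WT cells, beside 2440 and 1761 of 10802 tested genes. DESeq2 also called 0 members in both. The median member had a log2 fold change of -0.06 in KO and 0.03 in WT cells, beside -0.01 and -0.01 over all tested genes. The members' values ran between -0.59 and 0.54 in KO cells and between -0.37 and 0.34 in WT cells, with a median SE of 0.19. The CpG and genotype comparisons use the same 4 groups and so share libraries.

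Core subunits did not pass either. Ndufs1, the largest iron-sulfur subunit of complex I, had 70.7, 58.8 and 56.2 CPM in KO CpG libraries, against 66.5, 64.8 and 58.2 CPM in KO unstimulated libraries. In WT it had 67.2, 65.2 and 66.3 CPM with CpG, against 64.4, 64.8 and 58.0 CPM without it. The KO groups overlap and the WT groups do not, and the log2 fold changes were -0.03 (SE 0.11) in KO and 0.09 (SE 0.11) in WT cells. Atp5b, the catalytic beta subunit of the ATP synthase, had 321, 252 and 294 CPM with CpG and 287, 294 and 287 CPM without it in KO cells. In WT cells Atp5b had 275, 272 and 266 CPM with CpG and 278, 298 and 242 CPM without it. Its groups overlap in both genotypes, with log2 fold changes of -0.003 (SE 0.11) in KO and -0.01 (SE 0.11) in WT cells.

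The 1 member with an unadjusted p under 0.05 was Ndufv1, which binds NADH and FMN in complex I. It had 18.6, 17.7 and 18.0 CPM in KO CpG libraries, against 20.3, 22.2 and 22.4 CPM in KO unstimulated libraries. These groups do not overlap, but the difference did not pass, with a log2 fold change of -0.26 (SE 0.10, edgeR adjusted p = 0.145). In WT cells Ndufv1 had 22.0, 22.9 and 24.2 CPM with CpG, against 21.2, 22.5 and 20.2 CPM without it, with a log2 fold change of 0.11 (SE 0.10, edgeR adjusted p = 0.723). The CpG effect in KO minus that in WT was -0.37 (SE 0.15) for Ndufv1 and did not pass. This interaction called 0 of 80 members, where 0% of all tested genes passed in edgeR. At an unadjusted p under 0.05 it held 1 member and 365 genes, and DESeq2 called 3 genes, no member among them.

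The sign of the members' median under CpG rested on single libraries. Without KO CpG library 2, 65 of 80 members lay above 0 in KO cells (median 0.10), against 28 of 80 with it, and Ndufb3, an accessory subunit, rose by 0.50 (SE 0.14, edgeR adjusted p = 0.0464). Without KO CpG library 3 Ndufab1, the mitochondrial acyl carrier protein, fell by 1.13 (SE 0.28, edgeR adjusted p = 0.0190). With effective length in the fit, added after the data were seen, 40 members lay above and 40 below 0 and 0 passed. In WT cells the median was -0.09 without WT unstimulated library 3. Same-numbered WT libraries varied together, and with that pairing as a block, where 16.9% of all tested genes passed, 1 of 80 members, Ndufv3, an accessory subunit of complex I, fell in WT cells, with a log2 fold change of -0.37 (SE 0.09, edgeR adjusted p = 0.0198). Ndufv3 had 55.2, 61.3 and 106 CPM in WT CpG libraries 1, 2 and 3, against 73.6, 87.5 and 121 CPM in WT unstimulated libraries of the same numbers, so it was lower with CpG in all 3 pairs. With the same pairing as a block in KO cells, 0 of 80 members passed, where 24% of all tested genes did. Ndufb3, Ndufab1 and Ndufv3 are named after their values were seen.

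Markers of monocytes and macrophages were higher in sum with CpG. All 14 were detected, and they summed to 1376 to 1693 CPM in KO CpG against 587 to 720.3 CPM in KO unstimulated libraries, and to 1271 to 1331 CPM in WT CpG against 791 to 819 CPM in WT unstimulated libraries. Of the 14, Csf1r, Adgre1 and Vcam1 rose in KO cells and Csf1r and Adgre1 in WT cells, and Csf1r made up most of the difference in sum, with 916, 945 and 693 CPM in KO CpG against 160.0, 164 and 184 CPM in KO unstimulated libraries, and at least 530.1 CPM in every WT CpG library against at most 204 CPM in every WT unstimulated library. No marker of this list fell, and 5 of 14 had a log2 fold change below 0 in each genotype, among them Ccr2 and Fn1 in both. Between genotypes the sums of this list did not overlap either. They were lower in KO than in WT unstimulated libraries and higher in KO than in WT CpG libraries. The 9 T and NK cell markers in the files stayed between 3.69 and 11.2 CPM in sum. The 15 markers of cycling cells summed to 840.0 to 1194 CPM in KO CpG, 789.9 to 1176 CPM in KO unstimulated, 881 to 971 CPM in WT CpG and 873 to 1029 CPM in WT unstimulated libraries. The 10 B lineage markers in the files summed to 86.7 to 226 CPM in KO CpG, 38.3 to 177 CPM in KO unstimulated, 121 to 137 CPM in WT CpG and 83.3 to 90.9 CPM in WT unstimulated libraries. The part of other cells in the members' values was not tested.

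**Figure D2:**
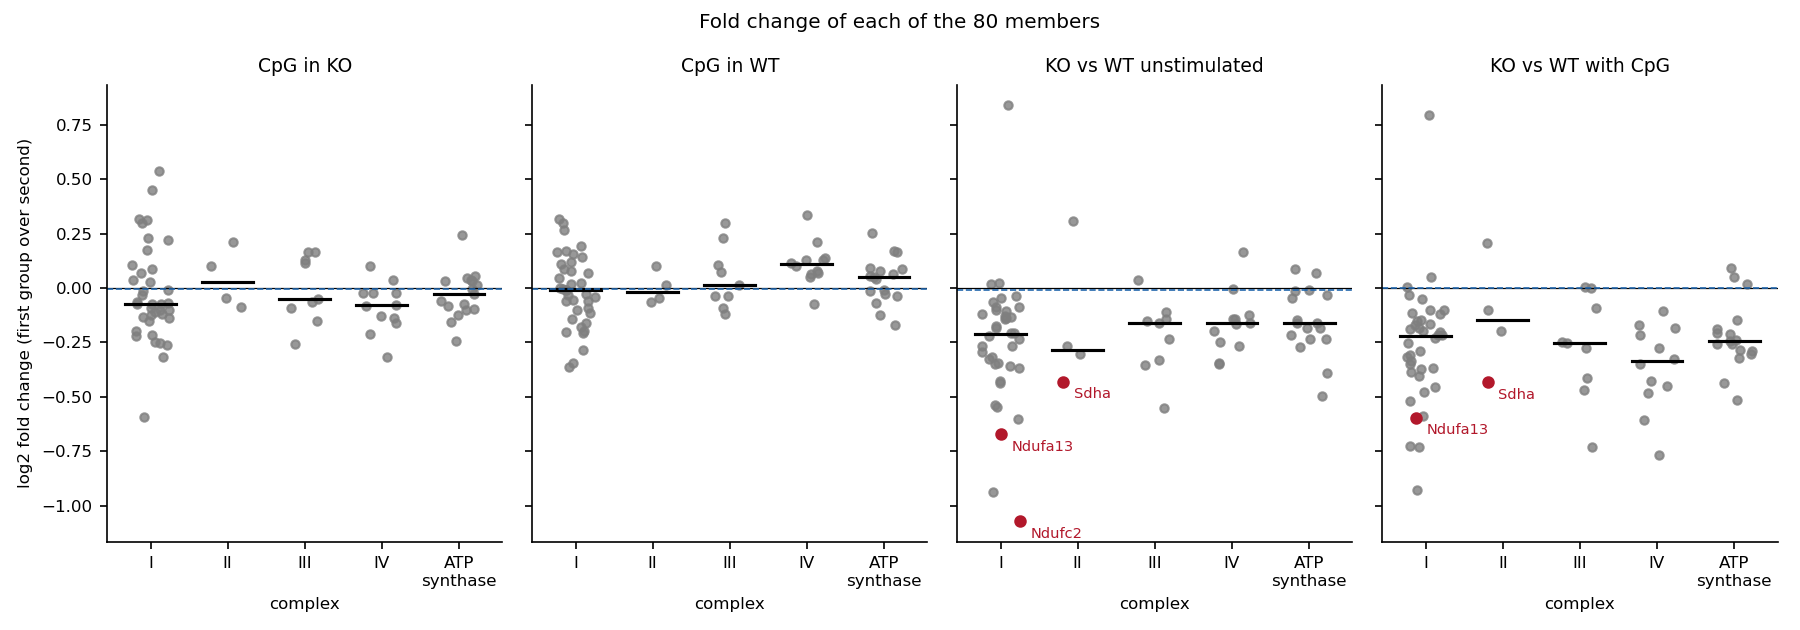
Each point is the log2 fold change of 1 of the 80 members in edgeR, by complex, in the 4 comparisons; bars are the complex medians, the dashed line is the median of all tested genes, and red points with names passed an adjusted p of 0.05. No point is red under CpG, and 72 and 71 of 80 members lie below 0 between genotypes.

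Between genotypes, 3 genes of complexes I and II fell in unstimulated KO cells and no member rose. They were Ndufc2 and Ndufa13, accessory subunits of complex I, and Sdha, the flavoprotein of complex II that oxidises succinate. Among all tested genes 2.64% were lower and 2.11% higher (4.75% in either direction), so 3 of 80 members is near the background. Most of the other members leaned the same way without passing: 72 of 80 had a log2 fold change below 0, with a median of -0.18 beside -0.01 over all tested genes. An unadjusted p under 0.05 was held by 11 of 80 members and by a larger share of all tested genes, 1903 of 10802. In bulk RNA, fewer cells of a type and less RNA per cell cannot be told apart. Without WT unstimulated library 3, 75 of 80 members lay below 0 (median -0.28) and 3 passed. The count was 1 without WT unstimulated library 2, and 6 without both libraries with longer fragments, where Ndufa3, Ndufa4 and Cox7a2 joined the 3. Counts over all tested genes also moved with the libraries left out. No share of all tested genes is set beside the 6, so it is not read as a result about the members.

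With CpG, Sdha and Ndufa13 fell in KO against WT cells and no member rose. Among all tested genes 2.21% were lower and 1.7% higher (3.92% in either direction), again near the members' 2 of 80. Here 71 of 80 members lay below 0, with a median of -0.25 beside -0.0009 over all tested genes. An unadjusted p under 0.05 was held by 15 of 80 members and by a similar share of all tested genes, 1957 of 10802. The calls with CpG rested on single libraries: 0 members passed without KO CpG library 2 or without WT CpG library 1. The count was 1 without WT CpG library 2 or 3, and 4 without KO CpG library 1 or 3. Counts over all tested genes moved with single libraries as well, as given at the end. Without KO CpG library 2 the median was -0.06 and 58 of 80 lay below 0. With effective length in the fit 4 members fell (Ndufa13, Ndufa3, Sdha and Uqcrb) and 0 rose. Of all tested genes 4.29% passed in either direction under that fit, and the share that fell is not given here. The members' median was then -0.14, beside 0.03 over all tested genes, and 60 members lay below 0.

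The promoters of the 3 genes that fell are shown so that they can be compared for motifs of regulators of nuclear respiratory genes. Each runs from 250 bases before to 50 bases after the gene start and comes from RefSeq on GRCm38.p6. Capitals mark matches to the binding motif of the factor NRF1, on either strand.
Sdha, chr13:74350191-74350490, minus strand: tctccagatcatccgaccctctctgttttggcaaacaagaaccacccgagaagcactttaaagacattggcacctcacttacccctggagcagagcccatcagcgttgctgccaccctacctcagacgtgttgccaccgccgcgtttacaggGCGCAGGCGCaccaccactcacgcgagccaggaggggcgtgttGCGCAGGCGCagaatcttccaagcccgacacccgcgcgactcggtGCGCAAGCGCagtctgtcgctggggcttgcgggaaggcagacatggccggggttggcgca
Ndufa13, chr8:69901971-69902270, minus strand: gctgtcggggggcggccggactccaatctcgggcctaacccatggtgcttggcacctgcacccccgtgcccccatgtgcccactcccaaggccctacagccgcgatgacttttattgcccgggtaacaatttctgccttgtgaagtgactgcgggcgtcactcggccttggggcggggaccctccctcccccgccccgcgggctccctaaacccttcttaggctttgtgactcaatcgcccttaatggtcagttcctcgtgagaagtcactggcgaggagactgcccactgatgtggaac
Ndufc2, chr7:97399753-97400052, plus strand: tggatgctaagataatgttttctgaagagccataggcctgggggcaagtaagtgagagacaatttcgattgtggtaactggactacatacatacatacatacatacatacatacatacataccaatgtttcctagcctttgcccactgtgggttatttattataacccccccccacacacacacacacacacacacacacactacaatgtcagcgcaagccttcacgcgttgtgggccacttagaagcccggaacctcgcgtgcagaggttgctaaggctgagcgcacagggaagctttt
The Sdha window holds 3 matches, and those of Ndufa13 and Ndufc2 hold none. Of the 66 members with a promoter in the table, 25.8% held the NRF1 motif, against 12.1% of the 8755 tested genes with one. CCGGAAG, bound by GABPA and other ETS factors, was in 25.8% of these members and 22.0% of these genes, and the YY1 motif in 6.06% and 2.01%. Neither was in the 3 windows printed. Both strands were searched, no motif contains another, and a match is a description and no sign of binding.

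Ndufc2, in the membrane arm of complex I, had 2.93, 3.16 and 3.10 CPM in KO unstimulated libraries, against 6.48, 7.71 and 5.13 CPM in WT unstimulated libraries. All KO values lay below all WT values, and the log2 fold change was -1.07 (SE 0.21, edgeR adjusted p = 0.00760). Under CpG it had 3.75, 4.03 and 4.77 CPM in KO libraries, against 5.93, 6.65 and 5.44 CPM in WT libraries. These do not overlap either, but the difference did not pass, with a log2 fold change of -0.52 (SE 0.20, edgeR adjusted p = 0.186). The difference between both genotype effects was 0.55 (SE 0.29) and did not pass. Ndufc2 is thinly covered, with 31 to 105 reads per library, and its edgeR adjusted p was 0.0513 without WT unstimulated library 2.

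Ndufa13 is an accessory subunit needed for the assembly of complex I. It had 27.2, 29.5 and 24.0 CPM in KO unstimulated libraries, against 47.4, 41.0 and 40.1 CPM in WT unstimulated libraries, with a log2 fold change of -0.67 (SE 0.13, edgeR adjusted p = 0.00850). After CpG it had 30.8, 23.3 and 25.8 CPM in KO libraries, against 41.4, 35.8 and 43.5 CPM in WT libraries, with -0.60 (SE 0.13, edgeR adjusted p = 0.0200). All 6 KO values lay below all 6 WT values. The unstimulated call held in all 22 alternatives run. The call with CpG was lost in 5 of them: without WT CpG library 1 or 3 or KO CpG library 2, without both libraries with longer fragments and with only the libraries compared in the fit (edgeR adjusted p of 0.0931, 0.0892, 0.0953, 0.102 and 0.0699).

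Sdha had 85.5, 81.7 and 74.4 CPM in KO unstimulated libraries, against 108, 116 and 102 CPM in WT unstimulated libraries, with a log2 fold change of -0.43 (SE 0.10, edgeR adjusted p = 0.0180). In CpG-treated cells it had 80.6, 78.5 and 74.6 CPM in KO libraries, against 106, 110.0 and 99.8 CPM in WT libraries, with -0.43 (SE 0.10, edgeR adjusted p = 0.0197). As for Ndufa13, no KO value reached a WT value. Sdha has the longest transcript of the members (effective length 2607 bases), and KO CpG library 2 was not the lowest of its group. Leaving out WT unstimulated 1 or 2, WT CpG 1, or KO unstimulated 2 or 3 gave an unstimulated edgeR adjusted p between 0.0528 and 0.0930. Leaving out WT CpG 1 or 2 or KO CpG 2, or fitting only the libraries compared, gave one with CpG between 0.0525 and 0.0936.

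**Figure D3:**
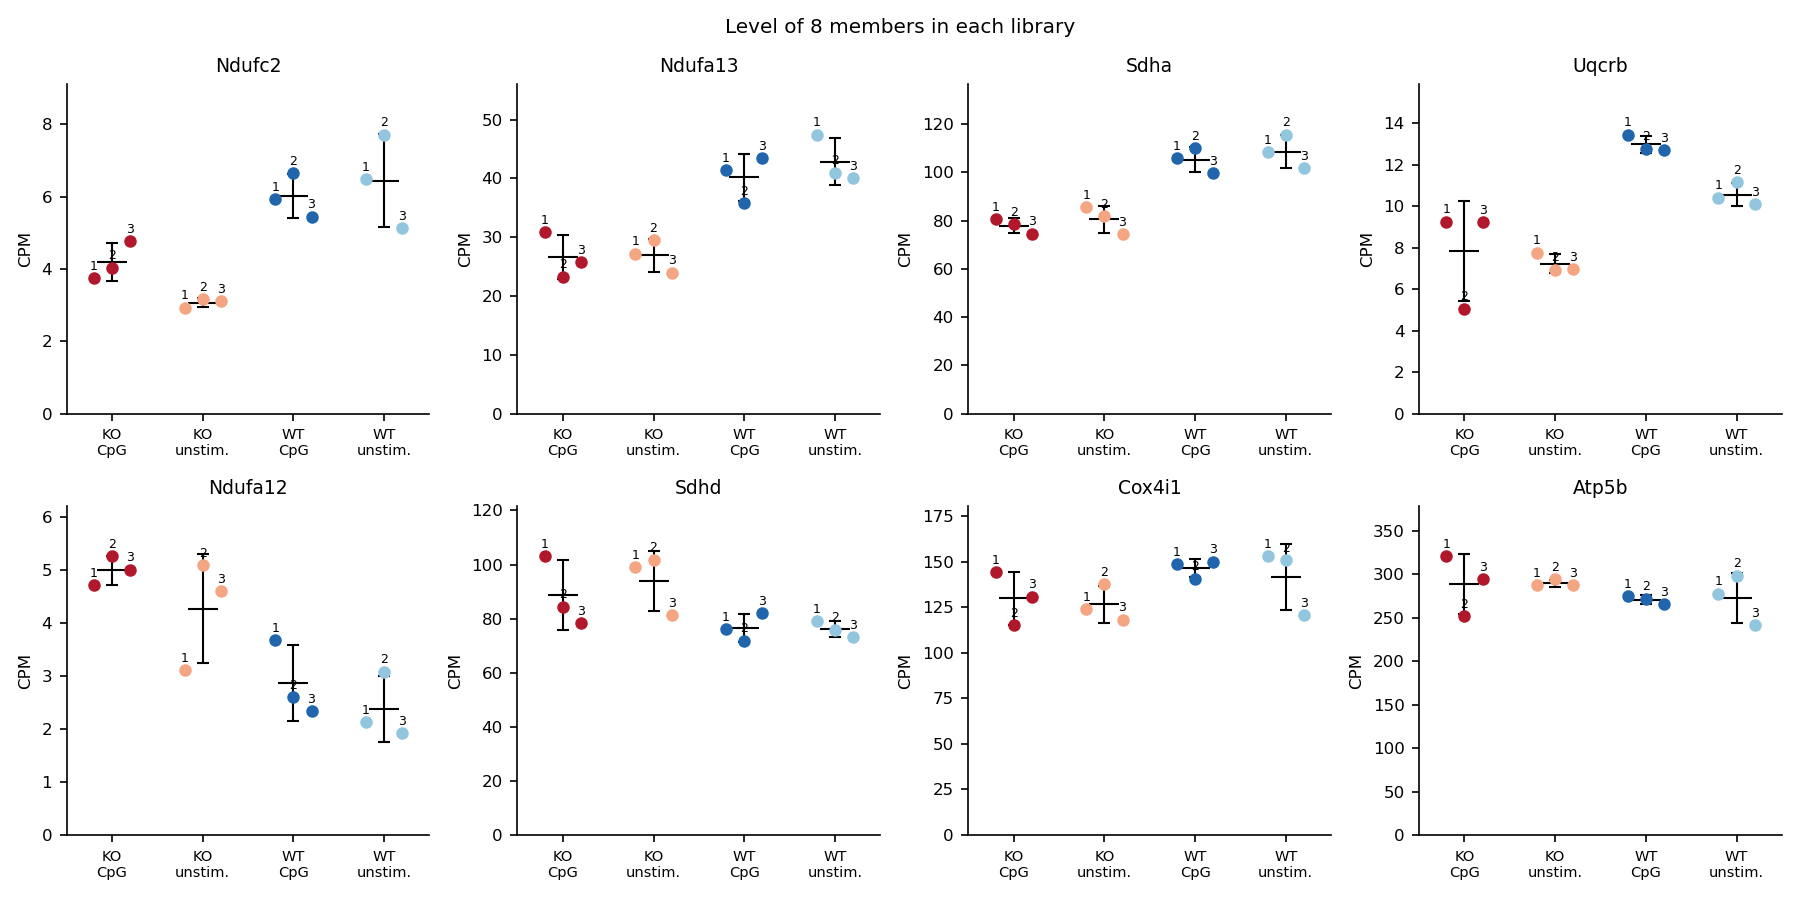
Points are the CPM of 8 members in each library, with the replicate number above, and lines are the group mean ± SD (n = 3). Ndufc2, Ndufa13, Sdha and Uqcrb lie lower in all KO than in all WT libraries, Ndufa12 lies higher in KO than in WT libraries within each treatment, and the genotypes overlap for Cox4i1 and Atp5b.

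The other complex II genes did not all lean with Sdha. Sdhb, the iron-sulfur subunit, had 49.6, 49.2 and 39.7 CPM in KO unstimulated libraries, against 61.6, 53.8 and 51.1 CPM in WT unstimulated libraries, with a log2 fold change of -0.27 (SE 0.13, edgeR adjusted p = 0.293). Sdhc had 15.5, 14.1 and 15.6 CPM in KO unstimulated libraries, against 19.7, 17.8 and 18.3 CPM in WT unstimulated libraries, with a log2 fold change of -0.30 (SE 0.12, edgeR adjusted p = 0.204). Sdhd had the opposite sign, with 99.1, 102 and 81.3 CPM in KO unstimulated libraries against 79.0, 75.9 and 73.1 CPM in WT unstimulated libraries, with a log2 fold change of 0.31 (SE 0.12, edgeR adjusted p = 0.204). In none of the 3 genes do these groups overlap, and none passed. With CpG their groups overlap. Sdhc and Sdhd are discussed here after their values were seen.

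Among the 7 core subunits of complex I none passed in either genotype comparison. Ndufs1 had a log2 fold change of 0.02 (SE 0.11) without and -0.10 (SE 0.11) with CpG. Ndufv1 differed by 0.02 (SE 0.10, edgeR adjusted p = 0.949) without and -0.35 (SE 0.10, edgeR adjusted p = 0.0883) with CpG, where its groups, given above, do not overlap. Of the 31 accessory subunits 30 lay below 0 in unstimulated cells (median -0.27) and 28 with CpG (median -0.25), where 23 lay below 0 without KO CpG library 2 (median -0.08). Without WT unstimulated library 3, 29 of the 31 lay below 0 in unstimulated cells (median -0.31).

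The accessory subunit Ndufa12, named after its values were seen, had the opposite sign in both comparisons. It had 3.12, 5.10 and 4.61 CPM in KO unstimulated libraries against 2.13, 3.08 and 1.92 CPM in WT unstimulated libraries, with a log2 fold change of 0.84 (SE 0.27, edgeR adjusted p = 0.113). With CpG the values were 4.71, 5.26 and 5.00 CPM in KO libraries against 3.68, 2.60 and 2.33 CPM in WT libraries, with a log2 fold change of 0.79 (SE 0.27, edgeR adjusted p = 0.129). Its groups do not overlap in either comparison, and neither difference passed.

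Summed over its 38 genes, complex I had 2430, 2448 and 2409 TPM in KO unstimulated libraries, against 2930, 2877 and 2634 TPM in WT unstimulated libraries. With CpG it had 2338, 2346 and 2382 TPM in KO libraries, against 2680, 2651 and 2717 TPM in WT libraries. All 6 KO sums lay below all 6 WT sums, and the ratio of means was 0.863 ± 0.0489 without and 0.878 ± 0.0139 with CpG (SD propagated from n = 3 each). As summed CPM the unstimulated groups do not overlap either, whereas with CpG they do (835, 589 and 730.0 CPM in KO and 832, 796 and 924 CPM in WT libraries). The same holds for CPM scaled by effective length. With CpG these sums were 805, 708 and 722 CPM in KO and 799, 770 and 894 CPM in WT libraries, a ratio of 0.9075 ± 0.0959. No test is given for a sum over chosen genes.

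In complexes III and IV no gene passed in either comparison. Uqcrc1, a core protein of complex III, had 56.5, 52.4 and 54.2 CPM in KO unstimulated libraries against 61.9, 63.3 and 57.1 CPM in WT unstimulated libraries, with a log2 fold change of -0.16 (SE 0.09, edgeR adjusted p = 0.405). Uqcrfs1, the Rieske iron-sulfur protein, differed by -0.11 (SE 0.14) and Cyc1, cytochrome c1, by -0.14 (SE 0.13). With CpG these 3 differed by 0.0013 (SE 0.09), -0.28 (SE 0.14) and 0.01 (SE 0.13).

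Uqcrb, a small complex III subunit named after its values were seen, lay farthest below 0 in that complex. It had 7.75, 6.94 and 6.95 CPM in KO unstimulated libraries against 10.4, 11.2 and 10.1 CPM in WT unstimulated libraries, with a log2 fold change of -0.55 (SE 0.20, edgeR adjusted p = 0.165). Under CpG it had 9.25, 5.06 and 9.23 CPM in KO libraries against 13.4, 12.8 and 12.7 CPM in WT libraries, with a log2 fold change of -0.73 (SE 0.20, edgeR adjusted p = 0.0624). Neither pair of groups overlaps, and Uqcrb passed with CpG in 4 of 22 alternatives. Without KO CpG library 2 its log2 fold change with CpG was -0.46 (SE 0.14, edgeR adjusted p = 0.136).

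Cox4i1, a regulatory subunit of complex IV, had 124, 138 and 118 CPM in KO unstimulated libraries against 153, 151 and 121 CPM in WT unstimulated libraries. The groups overlap through WT library 3, with a log2 fold change of -0.16 (SE 0.12, edgeR adjusted p = 0.545). Cox5a differed by -0.003 (SE 0.26) without and -0.35 (SE 0.26) with CpG, where it had 28.1, 10.8 and 26.5 CPM in KO libraries, low in library 2 alone, against 27.4, 26.9 and 28.7 CPM in WT libraries. Of the 12 complex IV genes 11 lay below 0 in unstimulated cells (median -0.16) and 12 with CpG (median -0.34). Without KO CpG library 2, 10 of the 12 lay below 0 with CpG and the median was -0.08. Without WT unstimulated library 3, 11 of the 12 lay below 0 in unstimulated cells and the median was -0.28. Summed complex IV TPM was 2016, 2008 and 2093 in KO CpG libraries, against 2325, 2282 and 2219 in WT CpG libraries, which do not overlap, but the unstimulated sums overlap through WT library 3. As CPM scaled by effective length the sums with CpG overlap, with 587.6, 513.6 and 540.3 CPM in KO and 595.9, 586.3 and 616.7 CPM in WT libraries.

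In the ATP synthase no gene passed between genotypes. Atp5a1, the alpha subunit, had 146, 146 and 151 CPM in KO unstimulated libraries against 151, 162 and 132 CPM in WT unstimulated libraries, which overlap, with a log2 fold change of -0.01 (SE 0.10, edgeR adjusted p = 0.984). Atp5b, whose values are given above, differed by 0.09 (SE 0.11) without and 0.09 (SE 0.11) with CpG. Of the 17 genes 15 lay below 0 without and 14 with CpG (medians -0.16 and -0.24), and with CpG 11 lay below 0 without KO CpG library 2 (median -0.02). In unstimulated cells 16 lay below 0 without WT unstimulated library 3 (median -0.19). The ratio of summed TPM in KO to WT was 0.953 ± 0.0731 without and 0.933 ± 0.0556 with CpG, and the groups overlap in both.

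**Figure D4:**
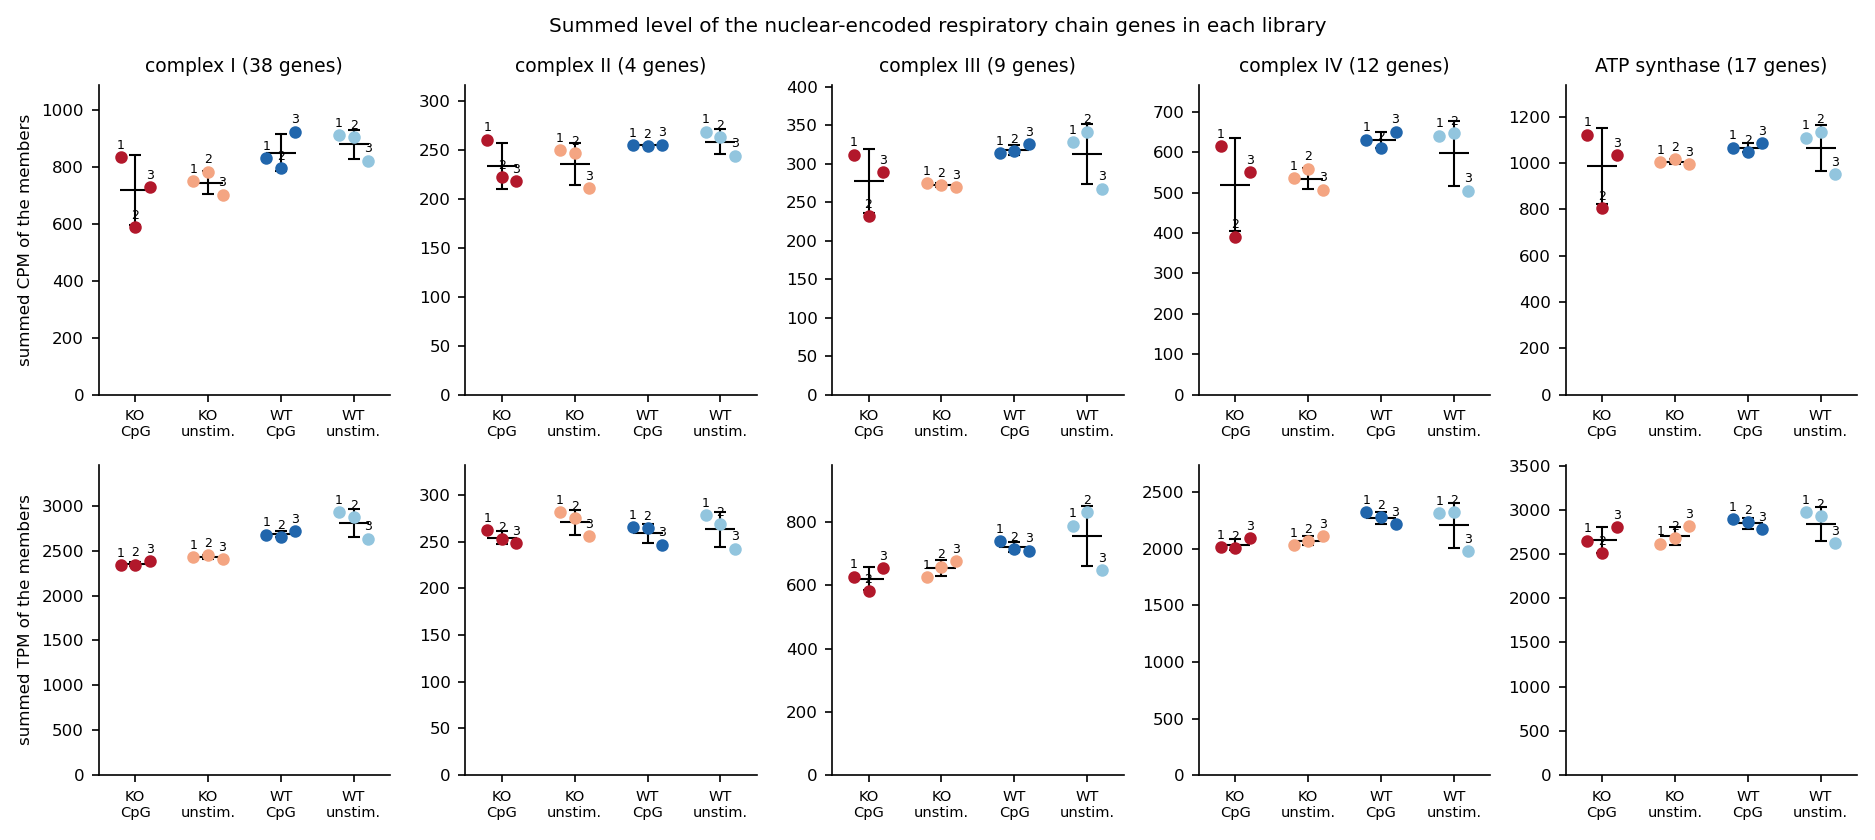
Points are the summed CPM (top) and summed TPM (bottom) of the members of each complex in each library, with the replicate number above, and lines are the group mean ± SD (n = 3). KO CpG library 2 is the lowest of its group in CPM in complexes I, III, IV and the ATP synthase, and only the complex I TPM sums separate the genotypes in both treatments.

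By CPM, 23 of 80 members were lower and 2 higher in every KO than in every WT unstimulated library, where 13% and 12% of all tested genes were. Without WT unstimulated library 3 these counts were 58 and 2, where 18.3% and 16.9% were. With CpG 19 were lower and 1 higher, where 10% and 10.3% were, and without KO CpG library 2 the counts were 21 and 2, where 13.4% and 13.2% were. By TPM, 15 members were lower and 3 higher in the unstimulated comparison (7.42% and 22.9% of all tested genes), and 24 lower and 2 higher with CpG (9.95% and 9.07%). Under CpG, by CPM, 2 members were higher and 1 lower without overlap in KO cells (12.7% and 11.5% of all tested genes), and 23 and 1 without KO CpG library 2 (16.3% and 15.8%). In WT cells 2 were higher and 4 lower (14.5% and 11.2%), and 2 and 21 without WT unstimulated library 3 (18.3% and 17.1%).

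Transcript length moved with the genotype values. The other tested genes of the shortest quartile had a median log2 fold change of -0.11 in both KO to WT comparisons, and those of the longest quartile had 0.09 without and 0.10 with CpG. The shorter 40 members had medians of -0.23 and -0.31, and the longer 40 had -0.16 and -0.20. The part of length in the members' values beyond the fit with effective length was not tested.

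Erythroid markers also differed between libraries. Of 12 listed, 11 were in the files and detected, and they summed to 457, 1923 and 6314 CPM in KO unstimulated libraries, against 5413, 5094 and 4123 CPM in WT unstimulated libraries. With CpG they summed to 541, 1752 and 6351 CPM in KO libraries, against 5343, 4450 and 4570 CPM in WT libraries. KO libraries 1 had the lowest and KO libraries 3 the highest sums of all. Of the 11, Hbb-bt alone passed between genotypes, in both comparisons, and is named after its values were seen. It had 0.850, 0.615 and 4.52 CPM in KO unstimulated libraries, against 453, 402 and 308 CPM in WT unstimulated libraries. The log2 fold change was -7.56 (edgeR adjusted p = 7.17e-06). Markers of neutrophil progenitors (13 of 13 detected) summed to 15910 to 16690 CPM in KO unstimulated and 13420 to 18480 CPM in WT unstimulated libraries, and with CpG to 13780 to 17890 CPM in KO and 11140 to 15000 CPM in WT libraries. Ltf, Chil3 and Camp made up most of these sums. Mpo, named after its values were seen, had 17.4, 68.9 and 223 CPM in KO unstimulated libraries 1, 2 and 3, against 90.4, 99.2 and 123 CPM in WT. Elane, Prtn3, Ctsg and Ms4a3 were likewise lowest in KO libraries 1 and highest in KO libraries 3, and Ltf, Camp and Cebpe were not. No marker of this list passed between genotypes. Of the 12 mature neutrophil markers Cxcr4 alone did, lower in unstimulated KO cells at -0.50 (edgeR adjusted p = 0.0239). Of the 14 monocyte and macrophage markers Csf1r alone did, higher in KO cells with CpG at 0.63 (edgeR adjusted p = 0.0099). Both are named after their values were seen. The part of these cells in the members' values was not tested.

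Genes next to the 3 that fell differed between genotypes as well. Among the 6 tested genes on either side, in RefSeq gene order on GRCm38.p6, 10 of 36 (27.8%) passed in unstimulated cells, against 40 of 922 (4.34%) around the other 77 members. With CpG 12 of 36 (33.3%) passed, against 35 of 922 (3.8%). This count, and the neighbours it names, were chosen after the data were seen, and the values are log2 fold changes in unstimulated cells. Near Ndufa13 on chromosome 8, the lysophosphatidic acid receptor gene Lpar2 fell in unstimulated KO cells, at -1.13 (SE 0.21), as did Rfxank, at -0.85 (SE 0.17), Nr2c2ap, at -1.54 (SE 0.35), and Borcs8, at -0.91 (SE 0.15). Near Ndufc2 on chromosome 7, Clns1a fell, at -1.79 (SE 0.23), as did Ints4, at -0.80 (SE 0.16), and the kinase gene Pak1 rose, at 1.22 (SE 0.16). Near Sdha on chromosome 13, the exocyst gene Exoc3 fell, at -0.95 (SE 0.10), as did Brd9, at -0.71 (SE 0.12), and Tppp rose, at 1.93 (SE 0.25). Of the other 77 members, 3 had 3 or more such neighbours: Sdhd, Atp5l and Uqcrc1, all on chromosome 9, which also carries Rab27a. A cause of differences that lie side by side was not tested.

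**Figure D5:**
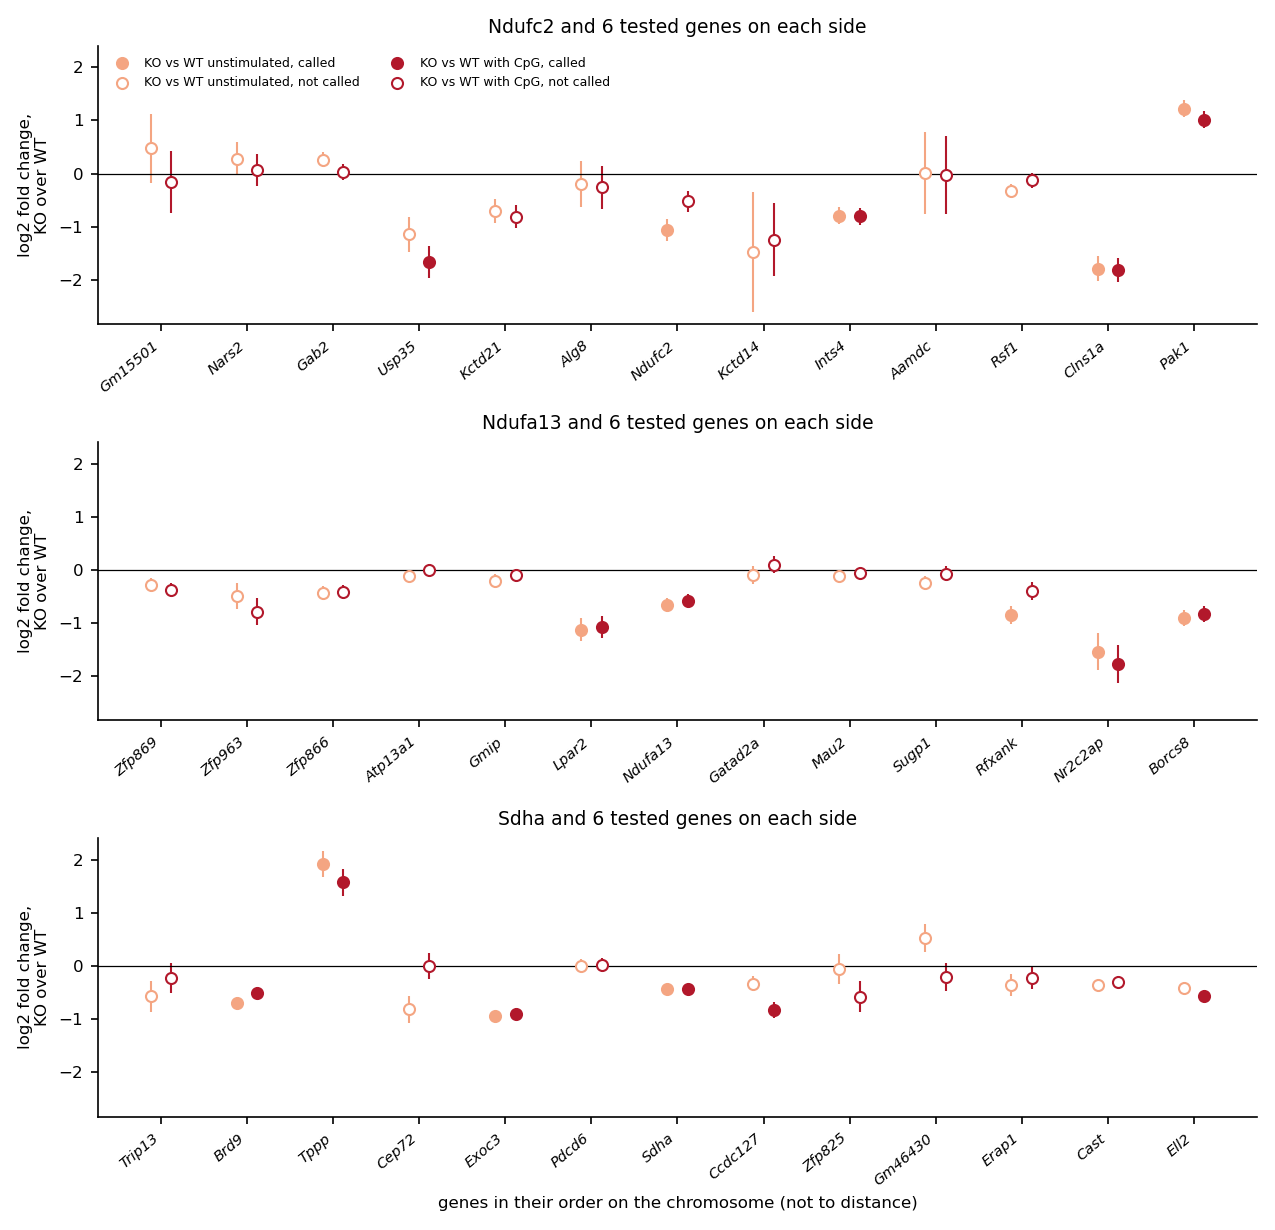
Points are log2 fold changes of KO over WT for Ndufc2, Ndufa13, Sdha and the 6 tested genes on each side, in chromosome order and not to distance, with bars of 1 SE; filled points passed an adjusted p of 0.05. In unstimulated cells filled points stand on both sides of Ndufa13 and on 1 side of Ndufc2 and of Sdha, and with CpG on both sides of all 3.

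Other mitochondrial genes were read beside the chain, against the 2.64% of all tested genes that fell in KO unstimulated cells and the 2.21% that fell with CpG. Of 78 mitochondrial ribosomal protein genes 4 fell and 0 rose in KO unstimulated cells (median -0.20), and 5 fell and 0 rose with CpG (median -0.28). Mrpl34 had 1.42, 0.791 and 1.68 CPM in KO unstimulated libraries against 8.02, 6.54 and 7.86 CPM in WT unstimulated libraries, with a log2 fold change of -2.52 (SE 0.28, edgeR adjusted p = 6.85e-05). Mrpl15 had a log2 fold change of -1.75 (SE 0.35, edgeR adjusted p = 0.00971) without CpG, and Mrpl55 had one of -2.20 (SE 0.33, edgeR adjusted p = 0.00125) with it. The count with CpG was 3 without KO CpG library 2, WT CpG library 1 or WT CpG library 3, and the unstimulated count was 2 without KO unstimulated library 2. With curated transcripts alone the counts were 2 and 1.

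Of 49 assembly factors 2 fell and 0 rose in both comparisons. Coa4, an assembly factor of complex IV on chromosome 7, had 1.23, 1.41 and 1.26 CPM in KO unstimulated libraries against 18.4, 18.6 and 16.8 CPM in WT unstimulated libraries, with a log2 fold change of -3.78 (SE 0.16, edgeR adjusted p = 1.87e-08). After CpG it had 1.57, 1.57 and 1.49 CPM in KO libraries against 17.0, 15.7 and 18.0 CPM in WT libraries. Tmem70, which helps assemble the ATP synthase, had a log2 fold change of -1.12 (SE 0.21, edgeR adjusted p = 0.00565) without and -0.95 (SE 0.21, edgeR adjusted p = 0.0175) with CpG. With CpG 1 passed without WT CpG library 1 or 2 or KO CpG library 2.

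In each of the next 3 lists the count is 1 gene. Of 18 electron carriers and ubiquinone-linked genes 1 fell in both, the ubiquinone synthesis gene Coq9, with a log2 fold change of -1.06 (SE 0.18, edgeR adjusted p = 0.00242) without and -1.07 (SE 0.17, edgeR adjusted p = 0.00228) with CpG. Of 28 import genes 1 fell in both, Timm17a, a channel subunit, with a log2 fold change of -1.45 (SE 0.30, edgeR adjusted p = 0.0111) and -1.31 (SE 0.27, edgeR adjusted p = 0.0141). Of 21 biogenesis regulators 1 fell in both, Polg, the mitochondrial DNA polymerase, with a log2 fold change of -0.46 (SE 0.10, edgeR adjusted p = 0.0214) and -0.52 (SE 0.10, edgeR adjusted p = 0.0114). None of 24 pyruvate dehydrogenase and citric acid cycle genes passed in edgeR between genotypes. Timm17a did not pass in unstimulated cells without WT unstimulated 1 or 2 or KO unstimulated 2, nor with CpG without WT CpG 1 or 2. Polg did not pass in unstimulated cells without WT unstimulated 1 or 2, WT CpG 1 or any 1 of the KO unstimulated libraries, nor with CpG without WT CpG 1 or 2.

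Under CpG the lists are set beside all tested genes, of which 11.6% passed in KO and 6.04% in WT cells. In KO cells 3 of 49 assembly factors passed, 3 of 18 ubiquinone-linked genes, 2 of 21 biogenesis regulators, 1 of 24 citric acid cycle genes, 3 of 78 ribosomal proteins and 0 of 28 import genes. In WT cells these counts were 1, 1, 1, 0, 2 and 0. The 3 of 18 in KO cells lay above the share of all genes, the 2 of 21 near it and the other lists below. Near that share in WT cells were the 1 of 18 and the 1 of 21, with the other lists below. Myc, a transcription factor that drives growth genes, had 2.35, 5.40 and 13.5 CPM in KO CpG libraries against 0.189, 1.67 and 1.84 CPM in KO unstimulated libraries, and rose, with a log2 fold change of 2.50 (SE 0.60, edgeR adjusted p = 0.0149). In WT cells it had 6.98, 8.26 and 7.60 CPM with CpG against 1.28, 1.03 and 1.36 CPM without it, with a log2 fold change of 2.63 (SE 0.60, edgeR adjusted p = 0.0176). Ndufaf7, a complex I assembly factor, rose in KO, with a log2 fold change of 0.94 (SE 0.15, edgeR adjusted p = 0.000941), and in WT cells, with a log2 fold change of 0.84 (SE 0.15, edgeR adjusted p = 0.00361). Mrpl4 rose in KO, with a log2 fold change of 0.99 (SE 0.14, edgeR adjusted p = 0.000302), and in WT cells, with a log2 fold change of 0.54 (SE 0.14, edgeR adjusted p = 0.0320), and Coq2 rose and Mrps35 fell in both. In KO cells Ndufaf3, Sqor and Gabpb1, a subunit of the GABP factor, rose, and Uqcc1, Coq4, Mdh2 and Mrps15 fell. Several counts moved with single libraries. In WT cells the count of ubiquinone-linked genes was 0 without any 1 of 8 libraries, among them WT unstimulated 1 and 2 and WT CpG 1 and 3. That of biogenesis regulators was 0 without any 1 of WT unstimulated 1, 2 and 3 and WT CpG 2, and that of ribosomal proteins without any 1 of WT unstimulated 1 and 2, WT CpG 1, 2 and 3 and KO unstimulated 2. In KO cells the counts of assembly factors, ubiquinone-linked genes and ribosomal proteins were each 1 without KO unstimulated 1 or 2, against 3 with all libraries. With the WT pairing as a block, 16.9% of all tested genes passed in WT cells, and the counts there were 3 ubiquinone-linked genes, 3 biogenesis regulators, 3 citric acid cycle genes and 4 ribosomal proteins.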

How the data were processed

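PolyA RNA of 12 libraries (4 groups of 3) was sequenced at BGI on an Illumina HiSeq instrument, per the labels. For each RefSeq transcript the authors deposited an expected count, made with RSEM 1.2.28 and Bowtie2 (version not given) on GRCm39, per the submitters' processing notes, which give no roles or order. TPM values were scaled by the authors per length and library, per the file headers, and serve for levels. FPKM values were scaled likewise by the authors, per the file headers, and served here only to derive effective length from counts. The sources used here do not give filters, strandedness or alignment rates.

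Expected counts were summed over the 54716 transcripts per NCBI gene and rounded. Symbols, gene order and promoters came from RefSeq tables of GRCm38.p6 (15883 of 15986 genes matched, and the other 103 held at most 0.101% of counts). filterByExpr (minimum count 10) left 10802 genes, among them all 80 members. edgeR 4.0.16 (R 4.3.3) with TMM fitted 1 mean per group to all 12 libraries (8 residual degrees of freedom, biological coefficient of variation 17.1%), with Benjamini-Hochberg adjustment over all genes in each of 5 comparisons. SEs come from that fit. Sums, neighbours and motifs carry no test.

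Members and lists were chosen with earlier results of these data known. Named genes were Rab27a, 12 core subunits, up to 6 called members per direction, the extremes of level per complex, paralogs, the genes nearest the count threshold and up to 2 called genes per list, direction and comparison. Others are marked where named. A gene that this rule names is not reported here.

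Same-numbered WT libraries correlated at 0.279, 0.408 and 0.437 in their deviations from the group mean, above the 0.1 used as threshold, so the numbers were taken to pair WT libraries. In KO the correlations were 0.619, 0.085 and 0.678. Only the pair with KO CpG library 2, a library with longer fragments, fell below the threshold, and the other KO pairs exceeded every WT value. KO numbers may therefore mark a shared source as well, which was not tested. The main fit paired no libraries. With the replicate number within each genotype as a block, 2591 genes passed under CpG in KO, against 1257. Between genotypes the correlations were -0.140 to 0.0311, so genotypes were not taken as paired. Alternatives were 2 other scalings, DESeq2 1.42.0, 2 other filters, curated transcripts alone, only the libraries compared, replicate blocks and leaving out each library. An effective length offset and leaving out both libraries with longer fragments were added after seeing the data.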

Additional observations from a re-analysis of the deposited data

How the results depend on the processing

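Of 80 members, 3 fell in KO against WT unstimulated cells, 2 with CpG, and 0 changed under CpG in either genotype. Leaving out single libraries gave 1 to 4, 0 to 4, 0 to 1 (KO) and 0 to 1 (WT); the low of 1 came without WT unstimulated 2, and the 0 with CpG without KO CpG 2 or WT CpG 1. The effective length offset, added after seeing the data, gave 6 and 4 in the genotype comparisons, all lower. Of all tested genes 5.3% and 4.29% passed there in either direction. Leaving out both libraries with longer fragments gave 6 in unstimulated cells and 2 under CpG in KO. No share of all tested genes is set beside these counts, so they are not read as results about the members. Counts over all tested genes with single libraries left out are given below. Fitting only the libraries compared gave 0 between genotypes with CpG. With the replicate number within each genotype as a block, 1 member (Ndufv3) fell in WT under CpG and 0 in KO. With the number across genotypes as a block the genotype counts stayed at 3 and 2. No other member call changed with a block. With the number within each genotype as a block the lists of other mitochondrial genes held more calls under CpG, as did all tested genes. Of all tested genes 24% passed in KO, against 11.6%. In KO 4 assembly factors, 8 biogenesis regulators, 4 citric acid cycle genes, 7 ribosomal proteins and 2 import genes passed, against 3, 2, 1, 3 and 0. Of these lists only the biogenesis regulators, with 8 of 21, lay above 24%. The KO libraries of number 2 did not meet the pairing threshold, while the other KO pairs correlated more strongly than any WT pair. The ratio of summed complex II levels in KO to WT unstimulated cells was 0.912 by CPM and 1.03 by TPM.

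Besides these counts and that ratio, the median under CpG in KO changed sign without KO CpG 2 (0.10 against -0.06) and in WT without WT unstimulated 3 (-0.09 against 0.03). The genotype medians stayed below 0 under all alternatives run. Library size alone moved the median of all genes to -0.09 under CpG in KO and to -0.07 between genotypes with CpG.

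Counts over all genes moved more. With the number within each genotype as a block, 2591 genes passed under CpG in KO and 1824 in WT, against 1257 and 652. In the interaction 13 passed, against 0. DESeq2 called 782 and 734 between genotypes without and with CpG, against 513 and 423 in edgeR, and curated transcripts alone gave 283 and 227, and 425 under CpG in WT. Only the libraries compared gave 253 with CpG. Single libraries left out gave 278 to 604 unstimulated, 234 to 699 with CpG, 818 to 1347 under CpG in KO and 425 to 758 in WT. The cause was not tested. Of the genes called between genotypes with CpG, 184 were higher and 239 lower in edgeR, and 419 and 315 in DESeq2; under CpG in KO 818 were higher and 439 lower, and 739 and 778 by library size alone.

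The median SE of a member's log2 fold change under CpG was 0.19. The labels name no molecular identifiers, so the spread between libraries does not separate amplification from sampling.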
